A study of Mus musculus with 2 samples.

Results

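Mast cells of the mouse uterus were examined in 2 droplet single-cell RNA libraries of whole uterus from female C57BL/6J mice aged 6 months. Each library was made from a pool of 3 mice. The library labelled control came from Prickle1 f/f mice, which carry the conditional Prickle1 allele on both chromosomes. That labelled cKO, where cKO abbreviates conditional knockout, came from Prickle1 f/f MiC mice, so both groups share the f/f allele and differ by MiC, which the labels do not explain. The genotype field of the labels reads wild-type for both libraries. Prickle1 itself stood at 2.68 and 9.31 CPM (counts scaled to a common total) in the cells other than mast cells, so it was not lower under the label cKO. These pooled counts cannot test the label, since the muscle of the uterus, where the series targets the gene, was not examined apart. Each library is therefore named by its label, and a direction between them rests on that label. Both pools were digested for hours in collagenase, and the libraries held 45035801 and 34261441 counts over all barcodes.

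A mast cell was a barcode with at least 500 unique molecular identifiers (UMIs, counts of captured RNA molecules), 250 or more genes detected and no more than 20% mitochondrial UMIs. It also had to hold at least 5 UMIs of Cpa3, Tpsb2, Cma1 and Mcpt4 together, making up at least 0.3% of its UMIs, and no UMI of Pdgfra, Epcam or Cd3e. By this rule 146 of 9004 cells were mast cells, 72 of 4401 under the label control and 74 of 4603 under the label cKO. With 1 pooled library per group there is no replicate, so the design allows no test and no p-values are given. Intervals in brackets are exact 95% intervals and cover counting error only, not the variation between mice or between preparations. In each pair of values the library labelled control comes first. Levels are given as CPM: UMIs summed over the mast cells of a library and scaled so that all genes add up to 1e+06.

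Mast cells are tissue-resident immune cells that ripen from blood-borne progenitors and survive on KIT ligand made by neighbouring cells. Their granules store proteases, histamine or serotonin bound to heparin, and are released when antigen cross-links IgE on the high-affinity receptor or when other receptors fire. In rodents, connective tissue mast cells carry the chymases Mcpt4 and Cma1, the tryptase Tpsb2 and carboxypeptidase Cpa3, while mucosal mast cells carry Mcpt1 and Mcpt2. Uterine mast cells lie in the myometrium and the endometrium, and their numbers and degranulation are known to vary with the oestrous cycle and pregnancy.

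GATA2, a transcription factor of mast cells and their progenitors, binds short DNA words around GATA, so the 250 bases before the start of the genes that marked these cells were searched on both strands for AGATAA or its variant ending in G (AGATAG), and for the forms that open with T in place of A (TGATAA, and with G at its end TGATAG). The sequences shown are the promoters of 3 of the 4 rule markers, each printed along the gene's own strand with the match in capitals. They are from RefSeq on GRCm38.p6 and lie at chr3:20242182-20242431 (minus strand) for Cpa3, chr14:55944676-55944925 (minus strand) for Cma1 and chr14:56062311-56062560 (minus strand) for Mcpt4, each just before the first base of the gene. Tpsb2 had no entry in the promoter table.
Cpa3: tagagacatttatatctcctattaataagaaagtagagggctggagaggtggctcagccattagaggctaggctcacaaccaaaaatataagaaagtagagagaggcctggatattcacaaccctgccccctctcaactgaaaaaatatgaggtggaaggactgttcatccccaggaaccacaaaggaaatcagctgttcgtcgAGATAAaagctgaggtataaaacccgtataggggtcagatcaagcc
Cma1: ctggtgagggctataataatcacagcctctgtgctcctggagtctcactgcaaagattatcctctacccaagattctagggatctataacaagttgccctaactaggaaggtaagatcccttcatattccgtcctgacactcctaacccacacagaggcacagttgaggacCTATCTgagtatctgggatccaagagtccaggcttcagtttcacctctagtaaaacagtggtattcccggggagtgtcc
Mcpt4: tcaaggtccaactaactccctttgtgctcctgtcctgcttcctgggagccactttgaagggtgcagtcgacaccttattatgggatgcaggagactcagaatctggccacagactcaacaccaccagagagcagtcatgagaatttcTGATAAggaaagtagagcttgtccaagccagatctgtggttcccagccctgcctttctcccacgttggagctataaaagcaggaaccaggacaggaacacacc
The Cpa3 window holds AGATAA 46 bases before the start. The Mcpt4 window holds TGATAA at 103 bases, and in the Cma1 window the capitals mark AGATAG read on the opposite strand at 79 bases. Such a word occurs in 26.5% of all 32851 promoter windows of the same length. Of the 20 genes that most set mast cells apart, 16 had an entry, some with several windows, and 11 of their 21 windows (52.4%) held at least 1 of the words. Rgs13 held 4 and Cd200r3 held 3. A match describes these letters and is not a measured site.

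Most mast cells were shallow. The median cell held 1113.5 and 1158 UMIs from 594 and 652.5 genes, against 3463 and 3448 UMIs in all other cells. The whole pool of mast cells held 91429 and 125033 UMIs. The median mitochondrial share was 7.72% and 6.86%, against 3.08% and 2.89% in the other cells. The 2 libraries shared 9 cell barcodes in all, none of them among mast cells.

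The values that chose the cells were far above the rest. The 4 markers together had a median of 24 UMIs per mast cell (range 5 to 199) and of 27.5 (5 to 169), or 2.56% and 1.74% of the cell's UMIs. All 4 markers were detected in 61 of 72 and 63 of 74 cells, and no mast cell rested on a single marker. Just inside the threshold, the lowest marker shares were 0.407%, 0.525% and 0.682% with the label control and 0.422%, 0.524% and 0.543% with the label cKO. Outside it, 11 and 10 cells had at least 3 marker UMIs, of which 7 and 6 had fewer than 5 UMIs and 3 and 2 fell below the 0.3% share. The exclusion genes removed 1 and 2 cells, among them a cell with 56 marker UMIs, 8500 UMIs in all and 7 Pdgfra UMIs.

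**Figure D1:**
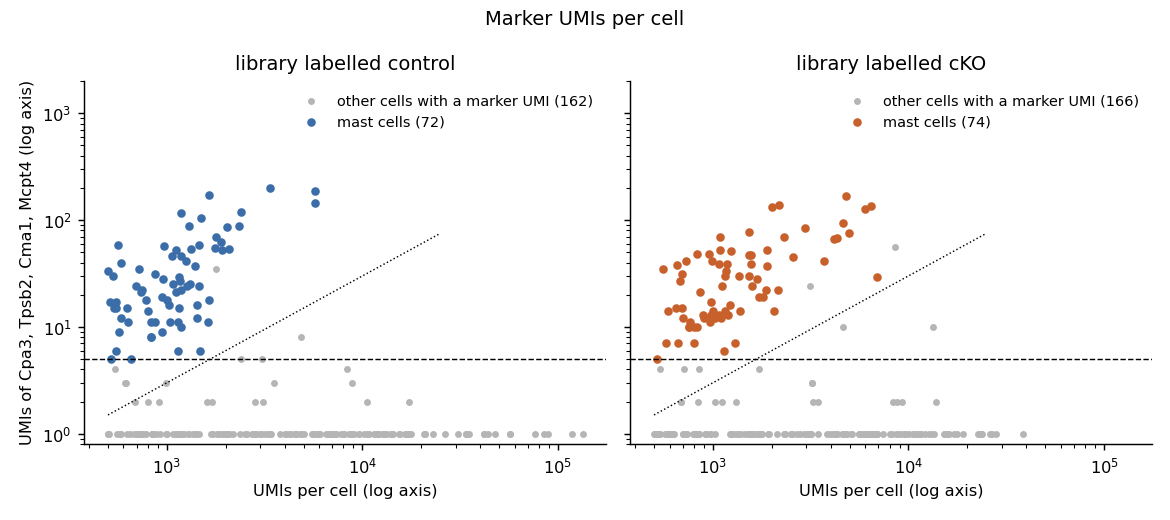
Marker UMIs per cell (log axis) against all UMIs per cell (log axis) for cells with at least 1 marker UMI, in each library. Mast cells (72 and 74, coloured) lie on or above the dashed line at 5 UMIs and above the dotted line at 0.3%. Grey points are the 162 and 166 other cells with a marker UMI, most of them at 1 UMI, and the 1 and 2 grey points above both lines were removed by the exclusion genes.

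The share of mast cells was 1.64% (1.28 to 2.06) and 1.61% (1.26 to 2.01), which is a log2 ratio of -0.03 (-0.51 to 0.46). No difference in share was detectable at this depth. Cells without an Epcam UMI, Epcam being an epithelial adhesion gene, numbered 3314 of 4401 and 4462 of 4603. Among these the share was 2.17% (1.70 to 2.73) and 1.66% (1.30 to 2.08), so the log2 ratio was -0.39 (-0.88 to 0.10). Among cells with a UMI of Ptprc, the common leukocyte antigen, or in the mast cell rule it was 8.69% and 6.41%, a log2 ratio of -0.44 (-0.93 to 0.05). The intervals of all 3 ratios include 0. The cell minimum also set the number found: 23 further barcodes in each library met the marker, exclusion and mitochondrial limits at 200 to 499 UMIs.

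Gene levels in mast cells were set beside those in all other cells. Over genes with at least 20 UMIs in mast cells, 206 of 1794 (11.5%), the 4 rule markers among them, were at least 4-fold higher than in all other cells in both libraries. At least 4-fold lower in both were 9 (0.502%). This is a description, since the cells were chosen by their content. The minimum of UMIs in mast cells also favours genes that are high in them, so the 2 counts do not test the label. Beyond the 4 markers, the leading genes were Tpsab1, Mrgprb1, Slco2b1, Tph1, Slc18a2, Cyp11a1, Sla, Hdc, Cd200r3, Gzmb, Rgs13, Hs6st2, Fcer1a, Ap1s3, 4932438H23Rik and Rab27b. Markers of cell types other than mast cells and basophils were below the level of the other cells or at 0. Without the cells that carried 3 or more markers of another type, 71 and 68 mast cells were left. Of the genes then compared, 124 were at least 2-fold higher and 51 at least 2-fold lower in the library labelled cKO, where over all mast cells these numbers were 129 and 40. The 6 fibroblast markers together gave 16 and 3 UMIs, where the level of the other cells would have given 338 and 831. The 16 lay in 2 cells. The 5 epithelial markers gave 4 and 4 UMIs, where the level of the other cells would have given 446 and 69.2. The 6 macrophage markers gave 1 and 10 against 28.1 and 32.4 at that level, and the 6 smooth muscle markers 10 and 30 against 57.8 and 131. The 4 endothelial markers gave 0 and 11 against 5.30 and 22.2, so under the label cKO they reached 0.495 times the level of the other cells. The 6 T or NK cell markers gave 0 and 1 against 4.43 and 16.2. All markers of B or plasma cells, dendritic cells and neutrophils were at 0 in both libraries. The 4 erythroid or platelet markers gave 0 and 1. The 4 basophil markers gave 72 and 92 UMIs, where the level of the other cells would have given 8.16 and 10.2, and 61 and 70 of these were of Cd200r3, which mast cells also express.

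The granule proteases of the rule led by their ratio to the other cells, as the rule sets. Cma1, a chymase, stood at 9308 CPM (8693 to 9955) and 5926 CPM (5507 to 6369), Mcpt4 at 9122 CPM (8513 to 9763) and 6622 CPM (6179 to 7089), the tryptase Tpsb2 at 7525 CPM (6973 to 8109) and 4791 CPM (4415 to 5190.2) and Cpa3 at 5633 CPM (5157 to 6141) and 4815 CPM (4438 to 5215). All 4 were lower in the library labelled cKO, with ratios of 0.637 (0.576 to 0.703), 0.726 (0.659 to 0.800), 0.637 (0.570 to 0.711) and 0.855 (0.759 to 0.963), none past 2-fold. The rule chose the cells by these same values, so the 4 ratios only describe the chosen cells. Over all 1748 genes compared, 7.38% were at least 2-fold higher in the library labelled cKO and 2.29% at least 2-fold lower. Together the 4 markers had 31587 and 22154 CPM. Their UMIs were nearly as many in both libraries, at 2888 and 2770, while the mast cells of the library labelled cKO held more UMIs in all. Tpsab1, the second tryptase, did not follow them: its 158 and 227 UMIs gave 1728 CPM (1469 to 2019.6) and 1816 CPM (1587 to 2068). Gzmb, a granzyme of cytotoxic cells that mast cells also make, had 2275 CPM (1976 to 2606) and 2367 CPM (2105 to 2653) against 18.2 and 16.7 CPM in the other cells. Tpsb2 and Tpsab1, and the Mcpt genes, are related in sequence, and whether reads were split or dropped between them in the authors' counting was not tested. The same holds for the Mrgprb receptors, Csf2rb and Csf2rb2, Hspa1a and Hspa1b, and Abcb1a and Abcb1b.

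Tpsg1, a membrane-bound tryptase, had 12 and 11 UMIs. Of the 15 further proteases listed, 5 passed the filter for comparing libraries. The filter asks for at least 20 UMIs, and a UMI in at least 10% of the cells of the higher library. None of the 5 was 2-fold apart, beside 7.38% of all genes higher and 2.29% lower. Cathepsin D, a lysosomal protease, was 4.58-fold (3.86 to 5.40) and 4.42-fold (3.77 to 5.15) above the other cells. Cathepsin B was below them, at 295 and 168 CPM against 1257 and 938 CPM. Cathepsin S, abundant in antigen-presenting cells, had no UMI in any mast cell.

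The mucosal proteases were found only in a few cells of the library labelled cKO. Mcpt1 had 0 and 30 UMIs, of which 15 and 14 lay in 2 cells, and Mcpt2 had 0 and 31, all in 1 cell. Against the limit of 3 counts that a count of 0 allows, their levels were 7.31-fold and 7.56-fold higher in that library. These folds leave out the counting error of the 30 and 31 UMIs, so they are not lower bounds. Each rests on 1 to 3 cells of 1 pool. The Mcpt2 cell was deep, with 5990 UMIs. It held 51 Cpa3, 22 Tpsb2, 54 Cma1, 23 Kit and 51 Gzmb UMIs but 0 Mcpt4 and 0 Mrgprb1. Another deep cell, with 6867 UMIs, held 13 of the 14 UMIs of Mcpt8, a basophil protease, beside 30 Kit, 9 Fcer1a and 1 Mcpt4 UMIs. Of the other basophil markers it held 3 Cd200r3 UMIs and none of Itga2 or Prss34. The 2 cells with the most Mcpt1 had 766 and 1885 UMIs in all and 3 and 6 Mcpt4 UMIs. Over all mast cells, Cd200r3 had 61 and 70 UMIs, Prss34 10 and 8 and Itga2 1 and 0.

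Amine genes separated mast cells from the other cells most clearly by their 3 leading members of 8 listed. Hdc, which makes histamine from histidine, stood at 1302 CPM (1078 to 1558) and 1744 CPM (1519.8 to 1991), against 6.56 and 6.21 CPM in the other cells. Tph1, the first enzyme of peripheral serotonin synthesis, stood at 1903 CPM (1631 to 2208) and 1399.6 CPM (1199.9 to 1623) against 0.446 and 1.17. Slc18a2, the transporter that loads amines into granules, stood at 1575 CPM (1328 to 1854) and 1456 CPM (1252 to 1683) against 1.18 and 3.90. The ratios of the libraries were 1.34 (1.07 to 1.69) for Hdc, 0.735 (0.593 to 0.912) for Tph1 and 0.924 (0.739 to 1.16) for Slc18a2, so Hdc was higher and Tph1 lower in the library labelled cKO. The cell richest in Hdc held 53 of its 218 UMIs in the library labelled cKO. Ddc, needed for the next step to serotonin, had 0 and 3 UMIs, and the amine-degrading genes Maoa, Maob and Hnmt had at most 10.

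**Figure D2:**
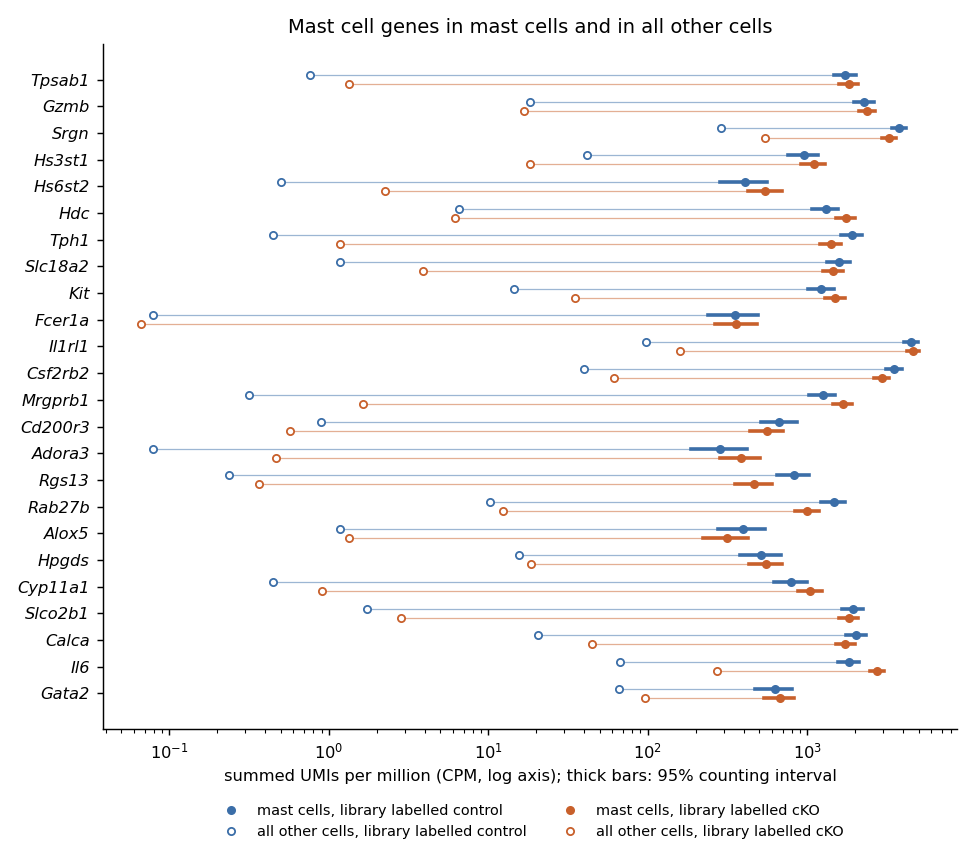
Summed level of 24 genes in mast cells (filled points, with thick bars for the 95% counting interval) and in all other cells (open points) of each library, in CPM on a log axis. For each gene both filled points lie to the right of both open points, as for Hdc at 1302 and 1744 against 6.56 and 6.21 CPM. The 24 genes are a selection that leaves out listed genes below the other cells, such as Ndst1 and cathepsin B. Their shared direction is therefore not a result about the lists.

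Granule matrix genes were also high. Srgn, the core protein that carries heparin in the granule, stood at 3762 CPM (3375 to 4182) and 3255 CPM (2947 to 3587), or 13.1-fold and 5.97-fold over the other cells. Of the sulfotransferases that modify heparan chains, some were far above the other cells, with Hs3st1 at 952 CPM (762 to 1174) and 1096 CPM (919.9 to 1295) against 41.5 and 18.3, and Hs6st2 at 405 CPM (285 to 558) and 544 CPM (422 to 689) against 0.499 and 2.24. Others were not, with Hs2st1 at 3.60 and 1.40 times and Ndst1 at 0.236 and 0.116 times the level of the other cells. Ndst2, a sulfotransferase needed for mast cell heparin, gave 3 and 6 UMIs. Of the 12 listed genes of proteoglycan and heparin synthesis, 7 had at least 20 UMIs, and 3 of these were at least 4-fold over the other cells in both libraries, where 11.5% of all genes were. The same 7 passed the filter between libraries. Hs6st1, with 5 and 15 UMIs, was past 2-fold at a ratio of 2.19 (0.758 to 7.72), whose interval includes 1, and none was 2-fold lower. Over all genes 7.38% were 2-fold higher.

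Among the 35 receptors, 12 passed the filter, and 10 of the 12 with at least 20 UMIs were at least 4-fold over the other cells in both libraries, where 11.5% of all genes were. Kit, the receptor for the growth factor that sustains mast cells, stood at 1225 CPM (1009 to 1474) and 1496 CPM (1289 to 1726). Il1rl1, the receptor for the alarmin IL-33, stood at 4484 CPM (4061 to 4940.1) and 4599 CPM (4231 to 4991), or 46.2-fold and 28.7-fold over the other cells. Csf2rb and Csf2rb2, neighbouring copies of the shared beta chain of the IL-3, IL-5 and GM-CSF receptors, stood at 2417 CPM (2109 to 2758) and 1999 CPM (1759 to 2263) and at 3500.0 CPM (3127 to 3905) and 2927 CPM (2635 to 3243). A UMI of Kit was present in 63.9% of mast cells (51.7 to 74.9) and 67.6% (55.7 to 78.0) at median depths of 1113.5 and 1158 UMIs. In fibroblasts, taken as the background of free RNA, the share was 2.82% and 3.25% at median depths of 8397 and 10079. Thinned to 500 UMIs per cell, which left no cell out, it was 37.5% and 44.6% of mast cells against 0% and 0.378% of fibroblasts.

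The high-affinity IgE receptor was detected unevenly by chain. Fcer1a, its IgE-binding alpha chain, had 32 and 45 UMIs, 350.0 CPM (239 to 494) and 359.9 CPM (263 to 482), against 3 and 2 UMIs in all other cells. Fcer1g, the signalling gamma chain shared with other receptors, had 962 CPM (772 to 1186) and 576 CPM (451 to 725), which gives a ratio of 0.598 (0.432 to 0.826). Ms4a2, the beta chain, had 0 and 13 UMIs, 6 of them in 1 cell. Against the limit of 3 counts it was 3.17-fold higher with the label cKO, without the counting error of the 13. Of the receptors related to those for cationic peptides, Mrgprb1 stood at 1247 CPM (1029 to 1498) and 1664 CPM (1445 to 1906) against 0.315 and 1.64 CPM elsewhere, while Mrgprb2, the receptor through which drugs trigger mouse mast cells, gave 6 and 13 UMIs. Cd200r3, an activating receptor of mast cells and basophils, and Adora3, an adenosine receptor, stood at 667 CPM (510.3 to 857) and 559.9 CPM (436 to 707) and at 284 CPM (186 to 417) and 384 CPM (283 to 509). The receptors for complement C5a, prostaglandin E2, substance P and bacterial lipopeptides encoded by C5ar1, Ptger2, Tacr1 and Tlr2 had no UMI in any mast cell. Cd63, a granule membrane protein that reaches the surface on degranulation, had 90 and 105 UMIs, a ratio of 0.853 (0.638 to 1.14).

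Cd9, a tetraspanin of the cell surface, was the 1 of 12 receptors that passed the filter to be past 2-fold between libraries. This count is near the share over all genes, of which 7.38% were higher and 2.29% lower. Cd9 had 9 UMIs in 8 cells and 57 in 21 cells, or 98.4 CPM (45.0 to 187) and 456 CPM (345 to 591), which gives a ratio of 4.63 (2.28 to 10.6). The share of mast cells with a Cd9 UMI was 11.1% (4.92 to 20.7) and 28.4% (18.5 to 40.1), and 4.17% and 17.6% after thinning to 500 UMIs. Fibroblasts had a Cd9 UMI in 74.2% and 83.7% of cells, at their greater depth. With the profile of empty droplets subtracted, the log2 ratio of Cd9 in mast cells was 2.37. In all other cells its level was 628 and 596 CPM, a log2 ratio of -0.07 against 2.16 in mast cells. The other cells differed in make-up between the libraries, with the 5 epithelial markers at 4876 and 554 CPM in them. Here and below, a ratio in the other cells therefore mixes cell types and does not compare like cells.

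In the signalling chain behind these receptors, 12 of 18 listed genes passed the filter. Of these 11 were at least 4-fold over the other cells in both libraries, beside 11.5% of all genes. None was 2-fold apart between libraries, beside 7.38% of all genes higher and 2.29% lower. The kinases Lyn and Syk, which start IgE receptor signalling, had 49 and 56, and 35 and 30 UMIs. Rgs1 and Rgs13, brakes on G protein signalling, stood at 2964 CPM (2622 to 3339) and 2831 CPM (2544 to 3142) and at 820.3 CPM (645 to 1028) and 464 CPM (352 to 599.7). In the other cells Rgs13 had 0.236 and 0.367 CPM, and its ratio between libraries was 0.565 (0.394 to 0.807). Of 12 genes of granule exocytosis, 5 passed the filter. Only Rab27b, which tethers granules for secretion, was at least 4-fold over the other cells in both libraries, beside 11.5% of all genes. Rab27b stood at 1466 CPM (1228 to 1736) and 999.7 CPM (832 to 1191).

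Among the lipid mediator enzymes, Alox5 and Alox5ap, which begin leukotriene synthesis, had 36 and 39, and 38 and 63 UMIs. Hpgds, the haematopoietic prostaglandin D2 synthase, stood at 514 CPM (378 to 684) and 552 CPM (429 to 698) against 15.6 and 18.5 CPM in the other cells. Ltc4s, the last enzyme to leukotriene C4, had no UMI in mast cells, and Ptgds, the other prostaglandin D2 synthase, had none either. Of 9 listed genes 5 had at least 20 UMIs, and 4 of these 5 were at least 4-fold over the other cells in both libraries, beside 11.5% of all genes. The 4 genes that passed the filter were within 2-fold between libraries, as were all but 7.38% (higher) and 2.29% (lower) of all genes. Ptgs2, the inducible cyclooxygenase, had 11 and 36 UMIs in 4 and 7 cells and did not pass the filter.

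Cytokine RNA was uneven between cells. Il6, an inflammatory cytokine, stood at 1816 CPM (1549.9 to 2114) and 2743 CPM (2461 to 3049.5) in 36 and 44 cells, with up to 40 and 75 UMIs in 1 cell. In the other cells it was 67.1 and 273 CPM, so mast cells were 27.1-fold and 10.1-fold over them. The ratio between libraries was 1.51 (1.25 to 1.83) in mast cells, and 4.07 (3.89 to 4.25) in the other cells. A UMI of Il6 was found in 36 of 72 and 44 of 74 mast cells and, at their greater depth, in 16.5% and 24.2% of fibroblasts. After thinning the shares were 34.7% and 40.5% against 3.73% and 9.52%. Tnf, which mast cells can store, had 16 and 33 UMIs. Of 8 listed cytokines with at least 20 UMIs, only Il6 and Tnf were at least 4-fold over the other cells in both libraries. Over all genes the share was 11.5%. The monocyte chemokine Ccl7 had 265 and 259 UMIs in 41 and 41 cells, 2898 CPM (2559.9 to 3269) and 2071 CPM (1827 to 2339.7), which gives a ratio of 0.715 (0.600 to 0.851). Il6 and Ccl7 were found in the same cell 23 and 30 times.

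The type 2 cytokines were sparse. Il13 had 3 and 8 UMIs in 3 and 5 cells, Il4 had 2 and 2, and Il5 had 0 and 10, all 10 in 1 cell. Il3, a growth factor of mast cells and basophils, had no UMI in any other cell of either library. It had 0 and 21 UMIs in mast cells, in 5 cells of the library labelled cKO with a median depth of 3688 UMIs. All 5 also held Il6, Ccl7 and Nr4a3. Cxcl2, a neutrophil chemokine, was the 1 of the 7 cytokines that passed the filter to be past 2-fold, beside 7.38% of all genes higher and 2.29% lower. It had 68 UMIs in 10 cells and 272 in 17, a ratio of 2.92 (2.23 to 3.87), but 1 cell held 34 of the 68 and another 138 of the 272. Without that cell in each library its level was 377 and 1081 CPM. Vegfa, the vessel growth factor, was present in 54 and 59 cells at 1805 CPM (1539.8 to 2102) and 1599.6 CPM (1386 to 1837). Calca, which encodes calcitonin and the calcitonin gene-related peptide and was added after its values were seen, stood at 2034 CPM (1752 to 2349) and 1736 CPM (1512 to 1982) against 20.6 and 44.6 CPM elsewhere.

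Of 17 transcription factors, 9 passed the filter and 5 of these were at least 4-fold over the other cells in both libraries, beside 11.5% of all genes. None was 2-fold apart between libraries, beside 7.38% of all genes higher and 2.29% lower. Gata2 stood at 623 CPM (472 to 808) and 672 CPM (536 to 832) and Runx1, a regulator of blood cell fates, at 711 CPM (549 to 906) and 1008 CPM (839 to 1199.8). Gata1 had no UMI. Mitf, which works with GATA2 in mast cells, had 5 and 8 UMIs, and Tal1 had 8 and 20. The 12 proliferation genes together had 22 and 39 UMIs, where the level of the other cells would have given 20.3 and 41.2. Most of these were of Pcna, a DNA replication clamp, with 20 and 24 UMIs, the 1 member that passed the filter. Mki67, Cdk1, Birc5, Ccnb1, Rrm2 and Tyms had no UMI in any of the 146 cells, and Top2a had 0 and 3.

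Growth and recruitment factors of mast cells were read in the rest of the tissue. Kitl, the KIT ligand, had 75.9 and 87.0 CPM in the other cells and 0 and 3 UMIs in mast cells. The other-cell levels were 5.17 and 5.01 CPM for Il33, the IL1RL1 ligand, and 94.2 and 159 CPM for the chemokine Cxcl12. The adhesion genes Cd44 and Itgb1 had 96 and 132, and 15 and 22 UMIs in mast cells, while Itgae, an integrin of mucosal mast cells, had none.

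The oestrogen and progesterone receptors were at 0 to 5 UMIs, and the glucocorticoid receptor was well above that. Esr1, the oestrogen receptor, had 1 and 1 UMIs in mast cells, where the level of the other cells would have given 7.84 and 15.8. Pgr, the progesterone receptor, had 2 and 5 against 15.2 and 71.4. Esr2 and Gper1 had none. Nr3c1, the glucocorticoid receptor, had 67 and 74 UMIs, 733 CPM (568 to 931) and 592 CPM (465 to 743), which gives a ratio of 0.808 (0.572 to 1.14), and exceeded the other cells 5.65-fold and 3.02-fold. The tissue around them had Pgr at 167 and 571 CPM in the 2 libraries.

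Cyp11a1, the mitochondrial enzyme that turns cholesterol into pregnenolone and opens steroid synthesis, was among the leading genes. It had 72 UMIs in 31 cells and 131 in 47, 787 CPM (616 to 992) and 1048 CPM (876 to 1243), against 0.446 and 0.901 CPM in all other cells. A UMI was found in 43.1% (31.4 to 55.3) and 63.5% (51.5 to 74.4) of mast cells, against 0.504% and 0.378% of fibroblasts. Thinned shares were 23.6% and 32.4% against 0% and 0.0756%. Its electron donor Fdx1 had 18 and 25 UMIs. Star, which feeds cholesterol to the enzyme, and Hsd3b1 and Hsd3b6, which act next, had no UMI in mast cells. These partner genes were looked up after Cyp11a1 was seen among the leading genes.

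Most genes in mast cells were within 2-fold between the libraries. Of 1748 genes compared, 129 were at least 2-fold higher in the library labelled cKO (7.38%) and 40 at least 2-fold lower (2.29%), on log2 ratios with 5 CPM added, which understate changes of low genes. The median log2 ratio was 0.12. Of the genes past 2-fold 76.3% were higher, and 67.5% after each cell was thinned to 500 UMIs. When the libraries were scaled by the median of their gene ratios instead, the median became 0.01 and 62.9% were higher. By the counting interval of each ratio, 158 of the 1748 genes lay above 1 and 108 below it. The highest ratio was that of Gm21083, a predicted gene, with 0 UMIs against 40 in 19 cells. This was 9.75-fold against the limit of 3 counts, without the counting error of the 40. In all other cells of the library labelled cKO it had 0.234 CPM.

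The other genes at the top were Rnf2, Ptms, Cdk17, Abcg1, Nr4a2, Ncoa3, Cd9, Atp5g3 and Trps1, with 2 to 9 UMIs against 19 to 57. Abcg1, a cholesterol exporter, had 2 UMIs in 2 cells and 20 in 16, a ratio of 7.31 (1.78 to 64.5). Rnf2, a polycomb ubiquitin ligase, had 2 and 23, a ratio of 8.41 (2.08 to 73.6). At the other end, Cyb5a, a cytochrome that passes electrons to membrane-bound enzymes, had 94 UMIs in 46 cells and 39 in 25, 1028 CPM (831 to 1258) and 312 CPM (222 to 426), which gives a ratio of 0.303 (0.203 to 0.445). In all other cells Cyb5a had 138 and 145 CPM. The drug exporters Abcb1a and Abcb1b, related in sequence, had 16 and 6, and 40 and 18 UMIs, at log2 ratios of -1.76 and -1.57, beside 0.74 and 1.03 in the other cells. Ly6a, an interferon-inducible surface protein, had 38 and 14 UMIs at a log2 ratio of -1.85, beside -1.72 in the other cells. The remaining low genes were Spcs2, Cox5b, Isg15, U2af1, Limd1 and Ptpre, with 16 to 41 UMIs against 6 to 17.

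**Figure D3:**
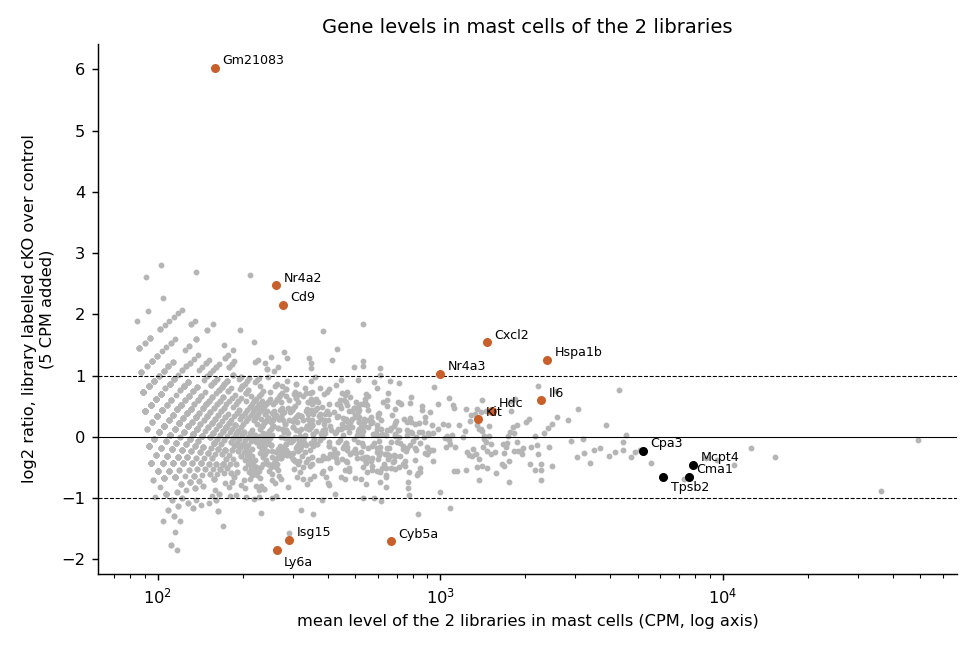
Log2 ratio between the libraries, cKO label over control label (5 CPM added), against the mean level in mast cells (CPM, log axis) for the 1748 genes compared, with dashed lines at 2-fold. The 4 rule markers (black) lie between -0.65 and -0.23, Cd9 and Nr4a2 lie above 2 and Cyb5a, Ly6a and Isg15 below -1.

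Interferon-stimulated genes were low in mast cells of both libraries and lower in the library labelled cKO. The list had 38 genes in the files, and 16 of these had no UMI in any mast cell, among them Ifit2, Ifit3, Irf7 and Usp18. Together they had 123 UMIs in 35 cells and 52 in 34, 1345 CPM (1118 to 1605) and 416 CPM (311 to 545), which gives a ratio of 0.309 (0.219 to 0.431) and a log2 ratio of -1.69. Isg15, a ubiquitin-like protein, was the 1 member that passed the filter and the median of the list, with 41 UMIs in 24 cells and 17 in 14, a log2 ratio of -1.69 beside 2.29% of all genes at least 2-fold lower and a median of 0.12 over all genes. Rsad2, an antiviral enzyme, had 21 UMIs in 6 cells and 10 in 6, a ratio of 0.348 (0.146 to 0.773). Of the 21, 10 lay in 1 cell with 6 marker UMIs of 1475, the lowest marker share inside the rule, and no other gene of the list. Without that cell, an alternative added after seeing the data, the ratio was 0.654 (0.249 to 1.70). Free RNA was estimated from the fibroblast and epithelial markers that the rule did not use, with the profile of empty droplets. By these markers it was 4.77% and 1.92% of the mast cells' UMIs and would have brought 15.5 and 1.85 UMIs of the list. The estimates rest on 20 and 7 marker UMIs. Of the 20, 16 were fibroblast UMIs in 2 cells, so the value for the label control depends mostly on these 2 cells. These values are not upper limits, since other marker lists were not used. Smooth muscle markers stood at 109 and 240 CPM in mast cells against 1462 and 2950 CPM in empty droplets.

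The same direction was seen in every class compared, at other levels. Macrophages, chosen by C1qa, C1qb, C1qc and Ms4a7 in a like manner (153 and 124 cells), had 19144 CPM (18896 to 19395) and 5462 CPM (5303 to 5625), a log2 ratio of -1.81. Fibroblasts (992 and 1323 cells) had 2217 CPM (2189 to 2246) and 719 CPM (706 to 732), a log2 ratio of -1.63. Cells with a Cd3e UMI, a class added after the data were seen because the like rule for T or NK cells found only 8 and 17 cells, had a log2 ratio of -1.82. All cells other than mast cells together, whose make-up differed between the libraries, had -2.31. Mast cells carried 0.260 and 0.399 times the level of the other cells. Whether the classes differ from each other in their ratio was not tested.

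A single mast cell of the library labelled control stood apart. With 1650 UMIs in all and 173 marker UMIs, it held 39 of the 123 UMIs of the list, from 15 of its genes: 13 of Ifit1, 5 of Isg15, 4 of Rsad2, 3 of Trim30a and 1 or 2 of each of the others. It held no UMI of any marker of another cell type, and no other mast cell held Ifit1. Outside this cell, and the cell with the most in the library labelled cKO, the list had 936 and 390.3 CPM, a ratio of 0.417 (0.286 to 0.603).

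**Figure D4:**
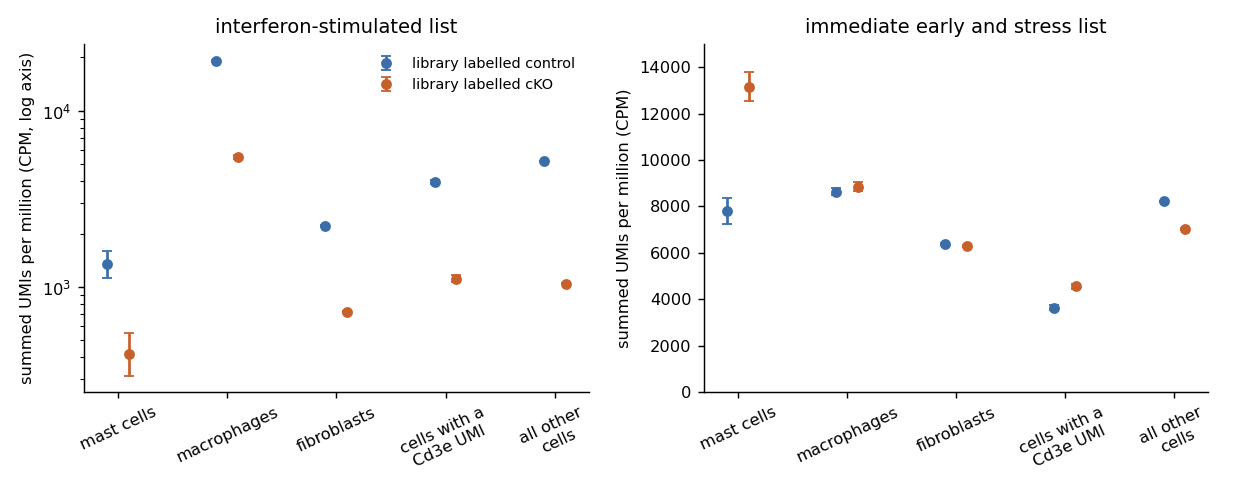
Summed level of the interferon-stimulated list (left, CPM on a log axis) and of the immediate early and stress list (right, CPM) in mast cells, macrophages, fibroblasts, cells with a Cd3e UMI and all other cells of each library, with 95% counting intervals. Mast cells are lowest for the left list in both libraries, at 1345 and 416 CPM, and for the right list highest in the library labelled cKO, at 13156 CPM.

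Immediate early and stress genes, which respond within minutes to hours of a stimulus, were higher in mast cells of the library labelled cKO. The 20 genes together stood at 7787 CPM (7226 to 8381) and 13156 CPM (12528 to 13808), which gives a ratio of 1.69 (1.55 to 1.85). Of the 14 that passed the filter, 4 were at least 2-fold higher (Egr1, Nr4a2, Nr4a3 and Hspa1b) and none lower, beside 7.38% of all genes higher, with a median log2 ratio of 0.77 beside 0.12 over all genes. Ier3, an early response gene, was found in 48 and 64 cells at 1597 CPM (1348 to 1878) and 2847 CPM (2559 to 3159), which gives a ratio of 1.78 (1.47 to 2.18). The orphan nuclear receptor Nr4a3 had 60 UMIs in 20 cells and 168 in 27, a ratio of 2.05 (1.52 to 2.80). In the other cells Nr4a3 had a ratio of 2.34 and Ier3 of 0.686. Nr4a2 had 7 UMIs, all in 1 cell, and 56 in 10 cells.

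Part of this lay in single cells. Hspa1b, a heat shock protein, had 129 UMIs in 20 cells and 422 in 14, and 1 cell held 184 of the 422. Without the top cell of each library Hspa1b stood at 1128 and 1976 CPM. The cell with 184 UMIs, which held 4615 UMIs in all and 93 marker UMIs, also held 30 of the 56 Nr4a2 UMIs and in total 338 UMIs of the list. Outside the cell with the most in each library the list had 7352 and 10854 CPM, a ratio of 1.48 (1.34 to 1.63). Per cell, the median was 50.1 and 69.7 list UMIs per 10000. The summed list had log2 ratios of 0.04 in macrophages, -0.02 in fibroblasts, 0.32 in cells with a Cd3e UMI and 0.76 in mast cells.

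Prickle1, the gene the series targets in the myometrium, the muscle of the uterus, had 0 and 1 UMIs in mast cells. The limit of 3 counts allows up to 32.8 CPM in the former, above the level of the other cells, so a loss in mast cells was not detectable at this depth.

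**Figure D5:**
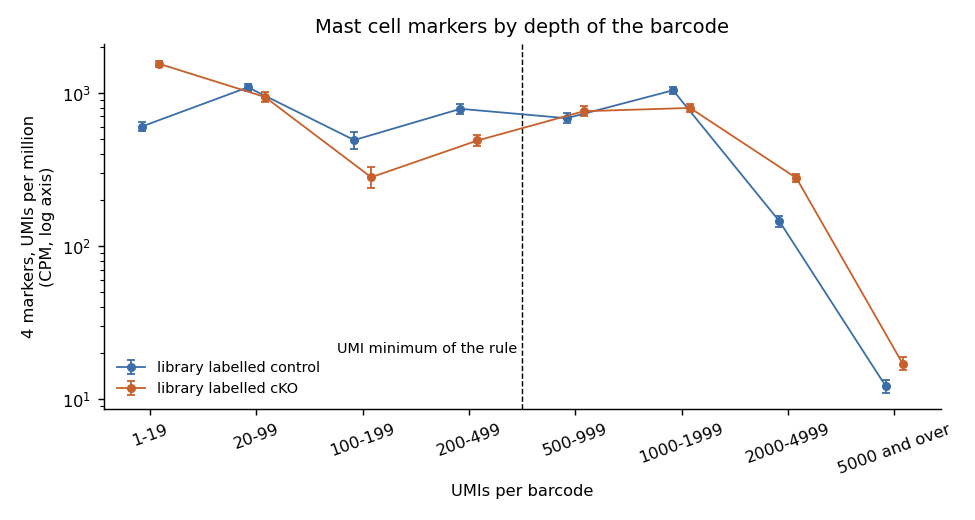
Level of the 4 markers (CPM, log axis, with 95% counting intervals) in barcodes grouped by their number of UMIs, for each library, with a dashed line at the 500 UMI minimum. The markers stand at 601 and 1548 CPM in barcodes of 1 to 19 UMIs and at 12.2 and 17.1 CPM in barcodes of 5000 UMIs and over.

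The plot of marker level by depth shows the lowest level in the deepest barcodes. The highest level was in barcodes of 20 to 99 UMIs for the label control, and for the label cKO in those of 1 to 19 UMIs. Between 1000 and 1999 UMIs, 3.48% and 3.55% of barcodes met the marker, exclusion and mitochondrial limits. From 5000 UMIs on, 0.108% and 0.169% did.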

How the data were processed

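Single-cell RNA was measured in 2 libraries of whole uterus (10x 3' v3), 1 per group. The values are UMI counts per gene and barcode that the authors deposited for all barcodes, with no normalization. Alignment and counting used Cell Ranger 6.1.1 on mm10, per the submitters' processing notes, while the deposited file headers name software version 4. The members and gene lists were chosen with earlier results of these data known. Counts were summed over the mast cells of a library and scaled to 1e+06. Libraries were compared by the log2 ratio after adding 5 CPM, for genes with at least 20 UMIs and a UMI in at least 10% of the cells of the higher library. Named genes were all members of the lists, the 20 genes with the highest ratio of mast cells to other cells, and the 10 highest and 10 lowest ratios between libraries. Intervals were exact 95% Poisson, Clopper-Pearson or conditional binomial intervals. The scripts were tested on simulated data. No doublet caller was run, and the exclusion genes stood in for one. Python 3.11.15 was used with numpy 2.4.6, scipy 1.17.1, pandas 2.3.3 and matplotlib 3.10.9. Other barcode filters, scalings, thinned counts and comparison cells were tried as alternatives. The count limit for a gene at 0 was 3.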

Additional observations from a re-analysis of the deposited data

Results flagged for a closer look

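Marker RNA of mast cells also appeared in barcodes outside the cells, which the comparisons do not use. In barcodes of at most 100 UMIs the 4 markers stood at 822 CPM (787 to 858) under the label control and at 1324 CPM (1272 to 1378) under the label cKO. Both values were above the level in the cells as a whole, at 81.8 and 102 CPM, by 10.1-fold and 13.0-fold. Mcpt4 stood at 260.3 and 575 CPM in these barcodes. Other marker lists were also higher there than in the cells, with smooth muscle at 2.32-fold and 2.81-fold and erythroid or platelet genes at 5.96-fold and 3.99-fold. Fibroblast, epithelial and macrophage lists were lower there, at 0.457 and 0.413, 0.653 and 0.645, and 0.902 and 0.880 times the level in the cells. The difference between the libraries was not tested.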

How the results depend on the processing

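Of 70 values recomputed under the alternatives, 62 stayed within the set limits and 8 moved. The log2 ratio of shares, whose interval includes 0, changed sign in 2 of 6 alternatives, to 0.16 with at least 1000 UMIs and 500 genes and to 0.10 with at least 10 marker UMIs and 1% of the cell's UMIs, and reached -0.39 over cells without an Epcam UMI. The mast cell share in the library labelled control moved to 1.17% with a minimum of 1000 UMIs and 500 genes, and to 2.17% over cells without an Epcam UMI. The count of genes at least 2-fold higher in the library labelled cKO was 52 of 631 after thinning each cell to 500 UMIs and 2863 of 9118 with no filter. The count at least 2-fold lower was 63 with median of ratios scaling, 68 with the mean of each cell's CPM, 25 after thinning and 1590 with no filter. The summed interferon list kept its direction, at log2 ratios from -1.94 to -1.34. For the 20 genes named between libraries, 237 of 240 values stayed within the limits and none changed direction. Nr4a2 moved to 6.74 without the 2 and 3 mast cells over 5000 UMIs, an alternative chosen after seeing the data. Abcb1a moved to -4.85 and Cyb5a to -1.12 after thinning. The cause was not tested. No paired analysis was possible because each group has 1 pooled library. Depth limits the results, since 30 of 72 and 27 of 74 mast cells held under 1000 UMIs, and most listed genes gave fewer than 20 UMIs.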
